A study of Mus musculus with 10 samples.

Results

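The natriuretic peptide system of the heart and a set of genes that mark the stressed or fetal-like ventricle were described in hearts of saline-injected mice and of mice 24 h after lipopolysaccharide (LPS), a cell wall component of Gram-negative bacteria used to model sepsis. The members were chosen by gene name and are 10 of the 54532 genes in the count table: the peptide genes Nppa and Nppb, the processing enzyme gene Corin, the receptor genes Npr1, Npr2 and Npr3, and the stress markers Myh7, Acta1, Ankrd1 and Gdf15. All 10 had enough reads to be tested. The 5 control hearts and the 5 LPS hearts came from C57BL/6 mice aged 8 weeks. No genotype beyond that strain, no sex, no LPS dose and no chamber of the heart is named in the labels. Each title numbers its sample within its group and does not say whether that sample is a single mouse or a pool. The samples were read as separate hearts, and p-values measure the spread between them. RNA came from frozen hearts through Trizol and TruSeq libraries.

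As background, the atrial and B-type natriuretic peptides are hormones that heart muscle cells release when they are stretched, and the adult ventricle turns their genes on again under load. They are cut from precursors by proteases such as corin and are cleared by NPR-C, which has no cyclase. They act through the guanylyl cyclase receptor NPR-A, which makes the second messenger cGMP, while NPR-B is the receptor of C-type natriuretic peptide. The myosin gene Myh7, the skeletal actin gene Acta1 and the mechanosensor gene Ankrd1 are known as markers of hypertrophy in mice, and Gdf15 encodes a cytokine of cell stress that circulates and acts on the brainstem.

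Npr3 and Npr1 fell, Corin and Ankrd1 rose, and the other 6 members did not pass the threshold of an adjusted p of 0.05 (edgeR's quasi-likelihood test, Benjamini-Hochberg adjustment over 13864 tested genes). So 4 of 10 members passed, where 39.9% of all tested genes passed in either direction, 18.9% upward and 21.0% downward. A count of 2 rising and 2 falling members is therefore near the background of these hearts, and the median log2 fold change of the members was 0.06 against -0.02 for all tested genes. Levels below are CPM, read counts scaled to the effective library size.

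Total counts lay between 14607969 and 17012372 per library. Saline replicate 5 stood apart from the other control hearts. The leading principal component held 91.0% of the variance of the 1000 most variable genes. Along it saline replicate 5 lay at -0.563, between the other saline libraries (-67.0 to -55.1) and the LPS libraries (43.7 to 55.0). Values without it are given beside the members and where a count or a call of a list differs. The tissue was heart muscle by its markers, with Myh6 at 16182 ± 2084 CPM (SD, n = 5) in controls against 16537 ± 1247 CPM after LPS, and Tnnt2, cardiac troponin T, at 5338 ± 791 and 5223 ± 645 CPM. Of 8 ventricular markers, 0 rose and Irx4 and Hey2 fell, and 6 fell with total count scaling. With that scaling 5764 of 13864 tested genes fell and 1712 rose, which is the background of every such count below. With TMM scaling the background is 18.9% upward and 21.0% downward.

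The peptide genes lie side by side on chromosome 4 (GRCm38), Nppb at 147985788 to 147987205 and Nppa at 148000722 to 148002079, both on the plus strand and 13516 bases apart. The sequences before their RefSeq starts are shown because both carry 2 matches to the letters GATAA, which GATA factors are known to bind. Corin and Npr1, of which one rose and one fell, are shown beside them and hold no match, while Ankrd1, which rose, holds a match and is not printed. Sequences are from RefSeq (GRCm38.p6), 5′ to 3′ on the strand of the gene. Capitals mark the GATA matches on either strand and, in Nppa, a match to the letters TATAAA. For Nppb the 30 bases around its pair of matches are printed, since GENCODE places an Nppb exon there.
Nppa, chr4:148000472-148000721, plus strand: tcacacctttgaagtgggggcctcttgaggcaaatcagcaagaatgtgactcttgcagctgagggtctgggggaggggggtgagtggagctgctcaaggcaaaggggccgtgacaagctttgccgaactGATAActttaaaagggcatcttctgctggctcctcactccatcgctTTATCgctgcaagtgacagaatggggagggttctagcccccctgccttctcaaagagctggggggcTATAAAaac
Nppb, chr4:147985800-147985829, plus strand: gcagctGATAAatcagaGATAAccccaccc
Corin, chr5:72504541-72504790, minus strand: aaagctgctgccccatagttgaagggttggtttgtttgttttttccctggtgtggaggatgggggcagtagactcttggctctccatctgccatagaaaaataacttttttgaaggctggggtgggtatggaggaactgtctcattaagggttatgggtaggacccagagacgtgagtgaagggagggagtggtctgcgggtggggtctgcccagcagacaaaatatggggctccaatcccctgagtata
Npr1, chr3:90465867-90466116, minus strand: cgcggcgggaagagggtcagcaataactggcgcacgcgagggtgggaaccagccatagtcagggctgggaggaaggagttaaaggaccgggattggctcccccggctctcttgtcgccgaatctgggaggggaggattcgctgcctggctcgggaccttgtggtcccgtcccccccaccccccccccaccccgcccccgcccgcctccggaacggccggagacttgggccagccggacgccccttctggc

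The 250 bases before the start were searched on both strands in all 10 members and in 32817 RefSeq promoters. GATAA was found for Nppa, Nppb and Ankrd1, and in 22.6% of all promoters. In Nppa the matches begin 121 and 75 bases before the start, the latter on the other strand, and in Nppb 94 and 83 bases before it. The MCAT element of muscle promoters, spelled CATTCC, was found for Acta1, Ankrd1, Gdf15, Myh7 and Nppb and in 12.6% of all promoters. The CArG box of serum response factor was found for Acta1 alone among the members, and in 1.47% of all promoters. The kappaB motif and the AP-1 motif (TGANTCA) matched 0 members, against 3.9% and 6.75% of all promoters. The letters TATAAA were found for Acta1, Nppa and Nppb and in 12.4% of all promoters. They begin 9 bases before the start used in Nppa and 31 bases before it in Nppb, where they are not printed. The Npr1 window was 70.4% G and C with 21 CpG pairs, against 54.4% and 4 for Nppa and 51.2% and 2 for Corin. A match is a run of letters, and no binding was measured.

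Nppa, which encodes atrial natriuretic peptide, was at 36.4, 40.3, 60.8, 46.8 and 46.7 CPM in saline replicates 1 to 5 and at 79.1, 40.2, 86.2, 73.5 and 32.5 CPM in LPS replicates 1 to 5. LPS replicates 1, 3 and 4 lay above every saline heart, replicate 5 below every one and replicate 2 below 4 of the 5, so the groups overlapped. The log2 fold change was 0.43 ± 0.28 (SE; edgeR, adjusted p = 0.257), with a 95% interval of -0.19 to 1.06, or 0.875-fold to 2.08-fold. A fold of 2 is therefore inside the interval. The spread between hearts was wider after LPS, with a coefficient of variation of 39.0% against 20.1% in saline, a difference that was not tested.

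Nppb, which encodes B-type natriuretic peptide, was at 125, 155, 194, 84.6 and 80.4 CPM in saline replicates 1 to 5 and at 220, 188, 128, 238 and 100 CPM in LPS replicates 1 to 5. LPS replicates 1 and 4 lay above every saline heart and replicates 2, 3 and 5 within the saline range. Its log2 fold change was 0.45 ± 0.32 (SE; edgeR, adjusted p = 0.295), with a 95% interval of -0.26 to 1.17. The intervals of both peptide genes leave room for no change and for a rise of about the size seen in Corin. In 19 alternatives of scaling, filter, test and left-out libraries, 0 called Nppa or Nppb, with adjusted p from 0.0559 to 0.648 for Nppa and from 0.128 to 0.719 for Nppb.

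**Figure D1:**
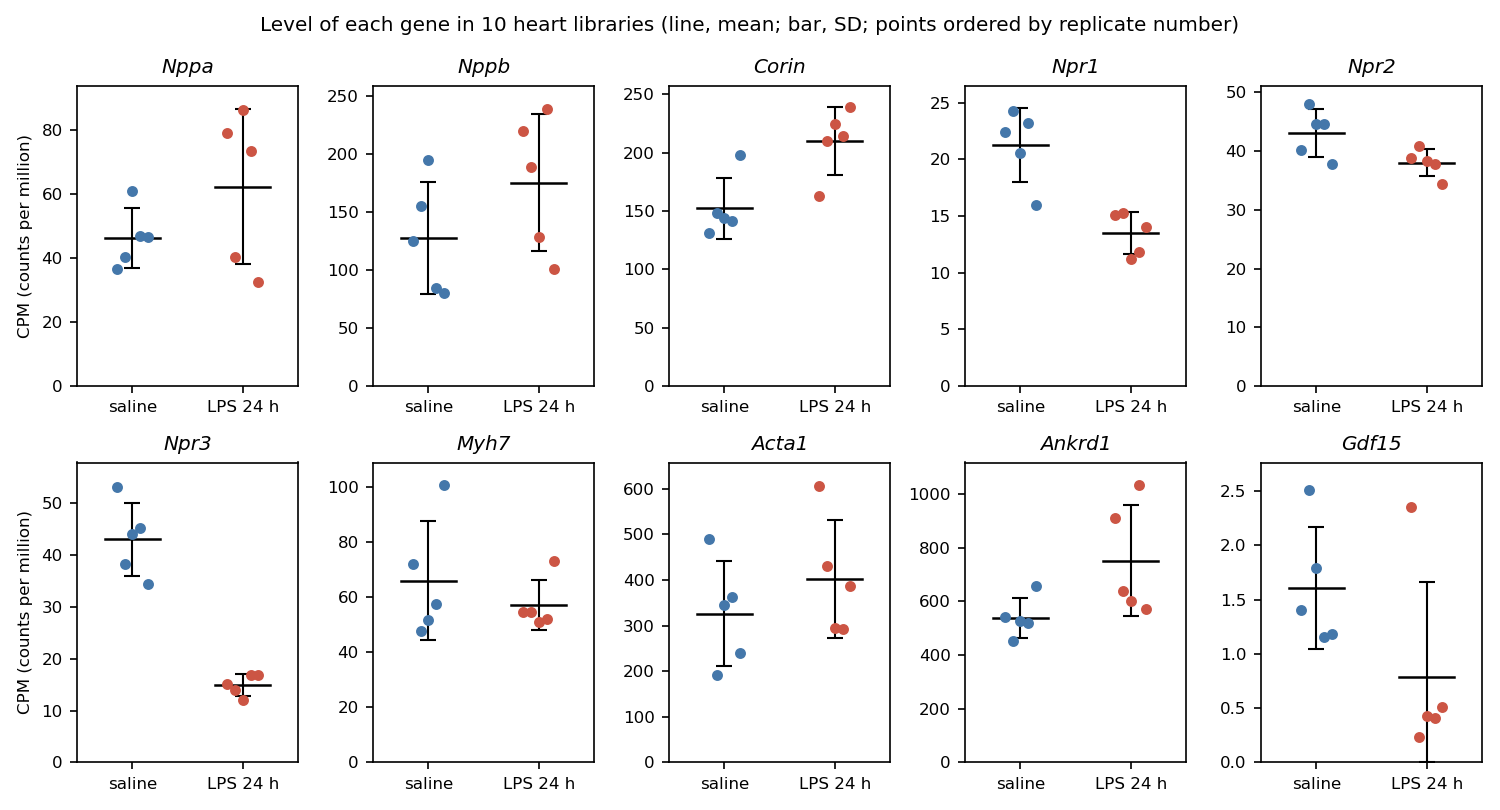
Level of each of the 10 genes in CPM on linear axes that start at 0; each point is 1 heart, in order of replicate number from left to right, black lines are means and bars SD (n = 5 per group, the lower bar of Gdf15 in LPS ends at 0). Npr1 and Npr3 are the panels without overlap between groups, and in Gdf15 1 LPS heart at 2.35 CPM lies apart from 4 at 0.233 to 0.508 CPM.

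Nppb exceeded Nppa in every heart. The ratio of their counts ranged from 1.72 to 3.84 in saline and from 1.49 to 4.69 in LPS hearts, and on the log2 scale was 1.41 ± 0.545 and 1.52 ± 0.601 (SD, n = 5 per group; exact permutation test, two-sided; p = 0.778, and 0.778 after Benjamini-Hochberg adjustment over 4 ratios). Per length, by the authors' deposited FPKM (a level scaled to gene length and library size), Nppb was at 172 ± 64.9 and Nppa at 56.3 ± 11.4 in saline hearts, and at 241 ± 80.6 and 77.3 ± 29.8 in LPS hearts. Within 50 kb of the pair, Plod1 and 2510039O18Rik did not pass the threshold (log2 fold changes of -0.16 ± 0.11 and -0.12 ± 0.12, SE), and Clcn6, a chloride transporter gene beyond Nppa, fell (-0.65 ± 0.14 SE, edgeR adjusted p = 0.00239).

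Atrial muscle makes far more Nppa than ventricle does, so genes of atrial muscle were read in the same hearts. Of 8 listed atrial markers 6 were tested, of which 0 rose and Nr2f2, also a gene of veins, fell. The summed level of the 8 was between 60.1 and 113 CPM in saline and between 61.7 and 148 CPM in LPS hearts. The atrial light chain gene Myl7 was at 10.3 CPM in saline replicate 3 and at 0.557 to 1.04 CPM in the other saline hearts, and at 2.28, 6.29, 10.5, 21.6 and 5.88 CPM in LPS replicates 1 to 5. The heart with the highest Nppa in saline was also the one with the highest Myl7. In LPS hearts these differed, with the highest Nppa in replicate 3 (86.2 CPM) and the highest Myl7 in replicate 4. LPS replicate 1, with the lowest Myl7 of the LPS hearts, had Nppa at 79.1 CPM. Bmp10, a growth factor of the right atrium, had 0 reads in the 5 saline hearts and 3, 1, 0, 88 and 2 in LPS replicates 1 to 5, so that replicate 4 stood apart.

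**Figure D2:**
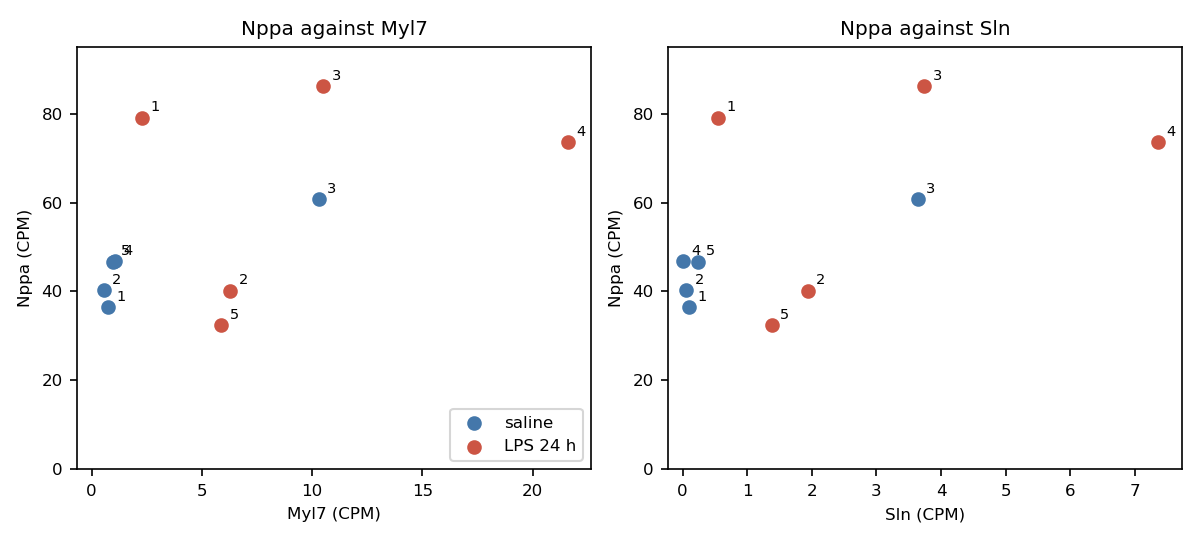
Nppa (vertical axis, CPM) against the atrial muscle genes Myl7 and Sln (horizontal axes, CPM); each point is 1 heart, numbered by replicate, blue for saline and red for LPS. Saline replicate 3 and LPS replicates 3 and 4 are high on both axes, while LPS replicate 1 has high Nppa at 79.1 CPM with Myl7 at 2.28 CPM.

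Over the 10 hearts the Pearson r of Nppa was 0.51 with Myl7, 0.54 with Sln and 0.44 with Myl4, but 0.17 with Dkk3, -0.18 with Kcnj3 and -0.38 with Nr2f2. With group means removed the 6 values were 0.38, 0.42, 0.28, 0.08, -0.11 and -0.12 in the same order. These are descriptions over 10 hearts that share library preparation and scaling. Of the 3 hearts with the most Myl7, leaving out LPS replicate 4 gave Nppa a log2 fold change of 0.39, LPS replicate 3 one of 0.30 and saline replicate 3 one of 0.55 (edgeR adjusted p = 0.361, 0.445 and 0.183). The log2 fold changes of Myl7, Myl4 and Sln were 1.77 ± 0.95, 1.45 ± 0.86 and 1.87 ± 1.16 (SE; edgeR adjusted p = 0.18, 0.222 and 0.244). Those of Dkk3 and of Kcnj3, the most abundant of the 6 at 46.1 CPM in controls, were 0.11 ± 0.53 and -0.06 ± 0.11. The part of atrial tissue in the levels of Nppa was not tested.

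Among the 13864 tested genes, the 3 whose log2 CPM was most like that of Nppa over the 10 hearts were Grpel1, Psmb5 and Mrps10, with Pearson r of 0.98, 0.95 and 0.94. The 3 most like Nppb were Rpl30-ps10, Gm1976 and Zdhhc2, with r of 0.92, 0.88 and 0.88. Nppa and Nppb themselves went together at 0.48. These genes are the best of many and are named as a description.

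Corin encodes the membrane protease that cuts the precursor of atrial natriuretic peptide at the surface of heart muscle cells. It was at 131, 148, 144, 141 and 198 CPM in saline replicates 1 to 5 and at 163, 210, 225, 214 and 239 CPM in LPS replicates 1 to 5. Only saline replicate 5 reached into the LPS range: the other 4 saline hearts lay below every LPS heart. Corin rose 1.38-fold, a log2 fold change of 0.46 ± 0.13 (SE; edgeR, adjusted p = 0.00986), and by 0.58 (adjusted p = 0.000451) without saline replicate 5. With libraries scaled by total count the log2 fold change was 0.20 and the call was lost (adjusted p = 0.16), since that scaling shifts the median of all genes by -0.27.

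Npr3 encodes NPR-C, the clearance receptor. It was at 53.0, 38.2, 44.1, 45.2 and 34.5 CPM in saline replicates 1 to 5 and at 15.2, 13.9, 12.0, 16.9 and 16.9 CPM in LPS replicates 1 to 5. The groups were far apart, with every saline heart far above the highest LPS heart. Npr3 fell 2.87-fold, a log2 fold change of -1.52 ± 0.13 (SE; edgeR, adjusted p = 1.32e-06), the largest change among the 10 members with all hearts (without LPS replicate 1 that of Gdf15 was larger, at -1.99). All 19 alternatives kept the call, with log2 fold changes from -1.81 to -1.42.

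Npr1 encodes NPR-A, the cyclase receptor of both cardiac peptides. It was at 22.5, 24.3, 20.6, 23.2 and 16.0 CPM in saline replicates 1 to 5 and at 15.1, 15.3, 11.2, 11.9 and 14.0 CPM in LPS replicates 1 to 5. The groups did not overlap, but saline replicate 5 lay just above the highest LPS heart. Npr1 fell 1.58-fold, a log2 fold change of -0.66 ± 0.13 (SE; edgeR, adjusted p = 0.00139), and was called in all 19 alternatives, from -0.94 to -0.58. Of all tested genes 14.1% had their 5 LPS hearts below their 5 saline hearts, as these 2 receptors did, and 14.3% had them above, as 0 members did.

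Npr2 encodes NPR-B, the receptor of C-type natriuretic peptide. It was at 40.3, 48.0, 44.6, 44.7 and 37.7 CPM in saline replicates 1 to 5 and at 38.8, 40.8, 38.4, 37.8 and 34.4 CPM in LPS replicates 1 to 5, and the groups overlapped. Its log2 fold change was -0.18 ± 0.09 (SE; edgeR, adjusted p = 0.129), with a 95% interval of -0.37 to 0.01, so that a fall as large as that of Npr1 lay outside it. Without saline replicate 5 it was -0.22, with an interval of -0.42 to -0.02 (edgeR adjusted p = 0.0664). With total count and upper quartile scaling Npr2 passed the threshold (-0.46 and -0.34, adjusted p = 0.00287 and 0.0095).

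**Figure D3:**
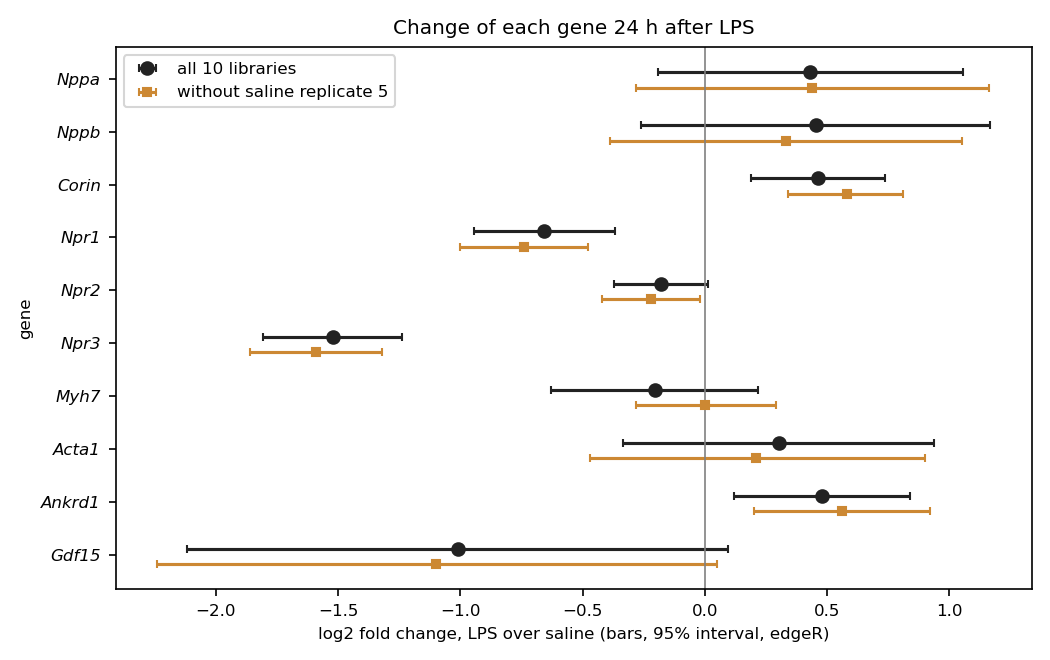
Log2 fold change of each of the 10 genes (LPS over saline, horizontal axis) with its 95% interval, from all 10 libraries (circles) and without saline replicate 5 (squares). The intervals of Npr3 and Npr1 lie below 0 and those of Corin and Ankrd1 above it, while Myh7 moves from -0.21 to 0 when saline replicate 5 is left out.

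Npr3 took 45.8%, 34.6%, 40.4%, 39.98% and 39.1% of the reads of the 3 receptor genes in saline replicates 1 to 5 and 22.0%, 19.9%, 19.5%, 25.4% and 25.8% in LPS replicates 1 to 5. The share fell by 17.4 percentage points, from 39.97% ± 4.01 to 22.5% ± 3.0 (SD, n = 5 per group; exact permutation test, two-sided; p = 0.00794, the smallest the design allows, and 0.0317 after adjustment over 4 ratios), with no overlap between groups. Per length, from the authors' deposited FPKM, the share was 25.1% ± 3.15 and 12.7% ± 1.91. In saline hearts Npr3 and Npr1 were level per length, at 4.82 ± 0.791 and 4.69 ± 0.702 FPKM with overlapping ranges. In LPS hearts Npr1, at 3.04 ± 0.435 FPKM, lay above Npr3, at 1.72 ± 0.246 FPKM, in 5 of 5 hearts.

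**Figure D4:**
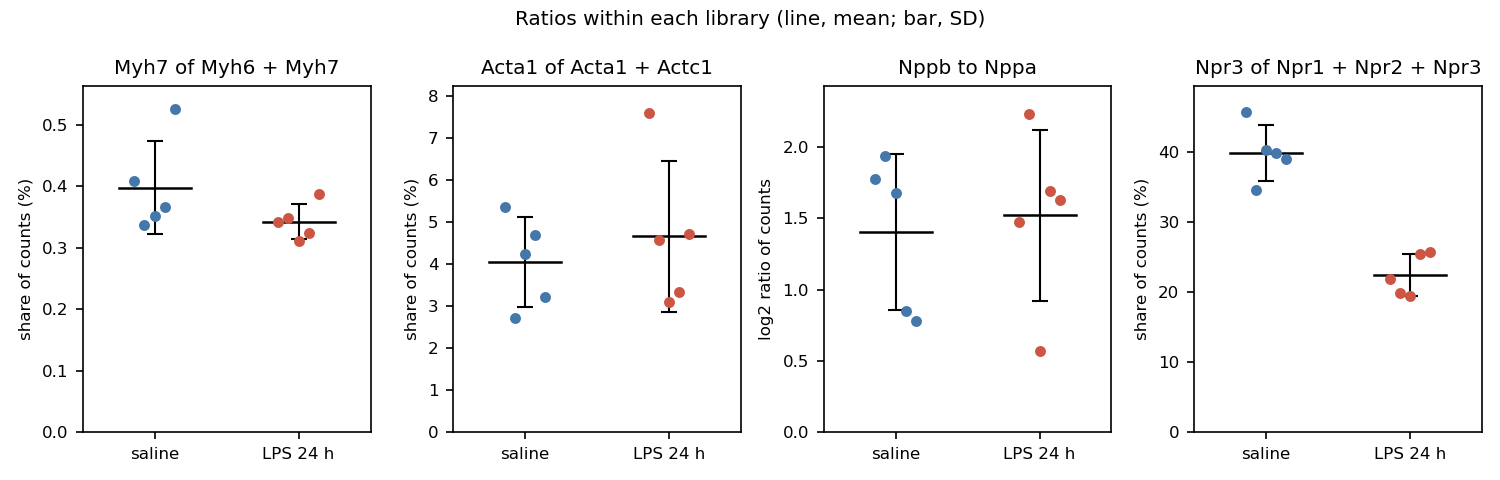
Ratios within each library: reads of Myh7 as a share of Myh6 and Myh7, of Acta1 as a share of Acta1 and Actc1 and of Npr3 as a share of the 3 receptors (percent of counts), and the log2 ratio of Nppb to Nppa; points are hearts, lines means and bars SD (n = 5 per group). The share of Npr3 separates the groups, 34.6% to 45.8% in saline against 19.5% to 25.8% in LPS, and the other 3 ratios overlap.

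NPR-A and NPR-C are known from the vessel wall, endocardium and fibroblasts as well as from muscle, so markers of those cells are given beside the receptors. Of 9 endothelial and endocardial markers 8 fell and 0 rose, among them Kdr, the main VEGF receptor, Tek and Pecam1 (log2 fold changes of -3.02 ± 0.30, -1.68 ± 0.14 and -1.13 ± 0.11, SE), and the median of the list was -0.88. Their summed level was 991 to 1558 CPM in controls and 576 to 719 CPM after LPS, and none was at 0. Of 7 fibroblast markers 2 fell, Pdgfra (-0.73 ± 0.14) and Lum (-0.48 ± 0.11), with summed levels of 1347 to 1674 and 1181 to 1566 CPM. Of 6 tested smooth muscle and pericyte markers 2 fell, Kcnj8 (-4.70 ± 0.22) and Pdgfrb (-1.06 ± 0.12), with summed levels over the 7 listed of 1037 to 1317 and 810 to 1020 CPM. Markers of neutrophils summed to 1.29 to 23.0 CPM in controls, highest in saline replicate 5, and to 13 to 38.9 CPM after LPS, with 2 of 4 tested rising and 4 of 4 without saline replicate 5. Of 8 macrophage markers 2 rose and 3 fell. With total count scaling 9 endothelial, 4 fibroblast, 4 smooth muscle and pericyte and 5 macrophage markers fell. These counts stand beside 5764 of 13864 tested genes that fell with total count scaling, and beside 21.0% with TMM scaling. In such bulk samples fewer cells of a type and less RNA per cell cannot be told apart, and the part of these cells in the falls of Npr1 and Npr3 was not tested.

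Of 18 tested genes of a list of peptide processing, breakdown and cGMP signalling 4 rose and 8 fell. The counts were 2 and 11 with total count scaling and 4 and 9 without saline replicate 5. The median log2 fold change was -0.47 against -0.02 for all tested genes, of which 18.9% rose and 21.0% fell. The members of the pathway that make cGMP in response to nitric oxide, Gucy1a1 and Gucy1b1, fell furthest (-2.77 ± 0.15 and -2.37 ± 0.16, SE; edgeR adjusted p = 3.7e-08 and 1.63e-07). Pde5a, the phosphodiesterase that breaks cGMP down in vessels, fell by 1.95 ± 0.23 on the log2 scale. Mrvi1, a substrate of cGMP-dependent kinase in smooth muscle, and Rgs2, a brake on G protein signalling, fell too (-1.08 ± 0.13 and -0.92 ± 0.20). Pde9a, a phosphodiesterase known to act on cGMP of natriuretic peptides, fell by 0.76 ± 0.22 on the log2 scale, and Prkg1, the kinase itself, rose by 0.41 ± 0.14 (edgeR adjusted p = 0.0304), a call that did not hold when saline 2, 3 or 4 or LPS 2 or 4 was left out (up to 0.0843).

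The proteases moved in opposite directions. Furin, which cuts the precursor of B-type natriuretic peptide, rose from 73.5 to 125 CPM (0.77 ± 0.11 SE, edgeR adjusted p = 0.00011) with no overlap between groups, as did the phosphodiesterase gene Pde1a (0.86 ± 0.19, adjusted p = 0.00218). Ide, insulin-degrading enzyme, which also breaks natriuretic peptides down, rose from 84.0 to 127 CPM (0.60 ± 0.15, and 0.32 with total count scaling, adjusted p = 0.0596). Pcsk6, the convertase known to activate corin, fell from 86.3 to 49.7 CPM (-0.79 ± 0.10, adjusted p = 3.9e-05), and Dpp4, a peptidase that can trim B-type natriuretic peptide, fell by 0.68 ± 0.14 on the log2 scale. Mme, which encodes neprilysin, the main enzyme of natriuretic peptide breakdown, was at 10.7 CPM in controls and 8.41 CPM after LPS (-0.35 ± 0.18, edgeR adjusted p = 0.143).

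**Figure D5:**
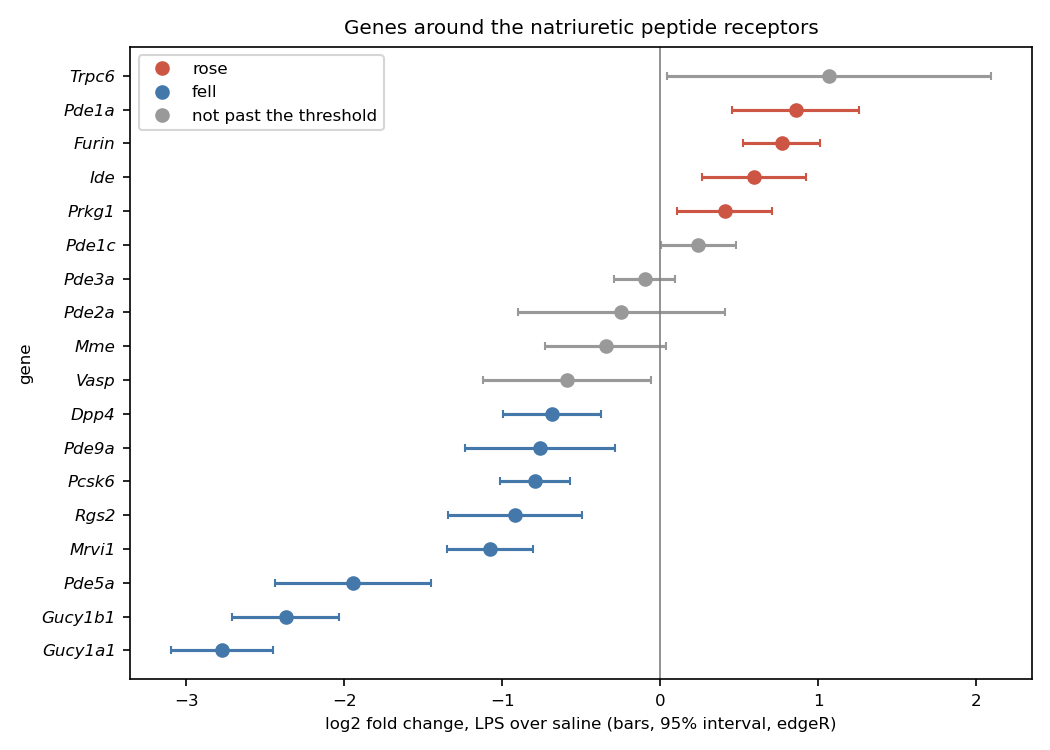
Log2 fold changes (LPS over saline, horizontal axis) with 95% intervals of the 18 tested genes of peptide processing, breakdown and cGMP signalling, red for those that rose, blue for those that fell and grey for those not past the threshold (edgeR). Gucy1a1, Gucy1b1 and Pde5a lie furthest below 0, and Pde1a, Furin and Ide are the highest that passed.

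Of 17 transcription factors known to act on the cardiac peptide genes 4 rose and 7 fell, against 1 and 9 with total count scaling. The median log2 fold change was -0.23. Of all tested genes 18.9% rose and 21.0% fell with TMM scaling. Gata4, a cardiac factor that binds GATA letters such as those before Nppa and Nppb, was at 94.97 ± 19.0 CPM in controls and fell to 55.6 ± 7.48 CPM (SD, n = 5 each; log2 fold change -0.77 ± 0.13 SE, edgeR adjusted p = 0.000384) with no overlap between groups. Gata6, another GATA factor of the list, rose from 49.6 to 62.1 CPM (0.32 ± 0.10 SE, edgeR adjusted p = 0.0201), and the groups overlapped. That call was lost without saline replicate 3 (edgeR adjusted p = 0.0535). With total count scaling Gata6 stood at 0.05 (edgeR adjusted p = 0.668). Nfatc3, a target of calcineurin, and Hey2, a repressor of atrial genes in the ventricle, fell by 0.92 ± 0.16 and 1.02 ± 0.21 on the log2 scale. Hand2, a factor of the developing heart, rose by 1.24 ± 0.14. Tbx5 and Tead1, the factor that binds MCAT letters, had rises of 0.45 ± 0.15 each that were lost when single libraries were left out (adjusted p up to 0.0587 and 0.0697), Tbx5 when saline 2, 3 or 4 or LPS 1 or 2 was dropped and Tead1 when saline 2, 3 or 4 or LPS 5 was. With total count scaling they stood at 0.19 and 0.18 (edgeR adjusted p = 0.323 and 0.276).

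Myh7 encodes the slow beta-myosin heavy chain, which replaces the fast alpha chain of Myh6 in the loaded mouse ventricle. It was at 71.9, 47.5, 51.6, 57.5 and 101 CPM in saline replicates 1 to 5 and at 54.6, 54.7, 51.0, 52.2 and 72.9 CPM in LPS replicates 1 to 5. The highest heart of all was a control, saline replicate 5. The log2 fold change was -0.21 ± 0.19 (SE; edgeR, adjusted p = 0.434), with a 95% interval of -0.63 to 0.22, and without saline replicate 5 it was 0.0013 with an interval of -0.28 to 0.29. A rise of Myh7 above 1.16-fold lay outside the interval with all hearts. With total count scaling Myh7 passed downward (-0.46, adjusted p = 0.0414).

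Myh7 took 0.398% ± 0.0761 of the reads of Myh6 and Myh7 in saline and 0.343% ± 0.0291 in LPS hearts (SD, n = 5 per group; exact permutation test, two-sided; p = 0.143, and 0.286 after adjustment over 4 ratios). No shift from alpha to beta myosin was detectable in the share. The difference of -0.0551 percentage points was -0.0233 without saline replicate 5. Of the stretches of 50 bases in the Myh7 transcript 22.2% also occur in Myh6, so that reads of the far more abundant Myh6 may enter Myh7 or be dropped from both, depending on how the authors counted reads with several matches, which no label states. Mhrt, a long noncoding RNA on the strand opposite to Myh7, overlaps it by 3666 bases and had 1303 reads over the 10 libraries against 9815 for Myh7. Its log2 fold change was -0.04 (edgeR adjusted p = 0.827), and without a stated strand its reads cannot be told apart from those of Myh7 in the shared stretch.

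Acta1 encodes skeletal alpha-actin, an actin of the fetal heart. It was at 489, 192, 346, 363 and 241 CPM in saline replicates 1 to 5 and at 605, 431, 295, 291 and 387 CPM in LPS replicates 1 to 5. LPS replicate 1 was the only LPS heart above the saline range. The log2 fold change was 0.30 ± 0.28 (SE; edgeR, adjusted p = 0.44) with a 95% interval of -0.34 to 0.94. It was 0.11 without LPS replicate 1 and 0.51 without saline replicate 1 (edgeR adjusted p = 0.771 and 0.159). Its share of the reads of Acta1 and the cardiac actin gene Actc1 was 4.04% ± 1.07 in saline and 4.67% ± 1.79 in LPS hearts (SD, n = 5 per group; exact permutation test, two-sided; p = 0.571, and 0.762 after adjustment). The 2 transcripts share 0 stretches of 50 bases.

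Since Acta1 is also the actin of skeletal muscle, markers of that tissue were read. Of 10 listed 2 were tested, Ckm, which heart muscle expresses as well (0.10 ± 0.10), and Tnni2 (-0.31 ± 0.36), and neither passed. Myh4 and Tnnc2 had 0 reads in all 10 libraries.

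Ankrd1 encodes a titin-bound ankyrin repeat protein that heart muscle makes under strain, and was the most abundant member per length, at 322 ± 45.5 FPKM in saline hearts (the authors' deposited values). It was at 542, 452, 527, 518 and 656 CPM in saline replicates 1 to 5 and at 910, 638, 603, 1035 and 573 CPM in LPS replicates 1 to 5. LPS replicates 1 and 4 lay far above the rest, and the other 3 LPS hearts lay below saline replicate 5. Ankrd1 rose 1.39-fold, a log2 fold change of 0.48 ± 0.17 (SE; edgeR, adjusted p = 0.0359), and by 0.56 (adjusted p = 0.0145) without saline replicate 5. The call was lost in 10 of 19 alternatives, among them 6 that left out a single heart, saline 1, 2, 3 or 4 or LPS 1 or 4 (edgeR adjusted p from 0.0571 to 0.08).

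Of 10 tested genes of titin-bound ankyrin repeat proteins and targets of YAP, a stretch-sensing coactivator, 2 rose and 3 fell. With total count scaling 1 rose and 3 fell. The median log2 fold change was 0.21, and the background with TMM scaling was 18.9% rising and 21.0% falling. Ankrd2, the family's member of skeletal muscle, rose from a low level, 0.286 to 2.01 CPM (2.80 ± 0.41 SE, edgeR adjusted p = 0.000103), and Ankrd23 stood at 0.40 ± 0.18 (edgeR adjusted p = 0.0898). The YAP targets Cyr61 and Amotl2 fell (-1.16 ± 0.17 and -0.68 ± 0.12), and another, Ctgf, stood at 0.38 ± 0.15 (edgeR adjusted p = 0.0651). Yap1 itself (0.24 ± 0.09) and its relative Wwtr1 (-0.29 ± 0.10) passed in opposite directions, and both calls failed with saline 2 or 4 or LPS 2 left out (p, adjusted, up to 0.102 and 0.0906), and with total count scaling the log2 fold change of Yap1 was -0.03.

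Of 19 tested contractile genes and others known to change in hypertrophy 3 rose and 0 fell with TMM scaling. That scaling had 18.9% of all tested genes rising and 21.0% falling. In the list 2 rose and 6 fell with total count scaling, and 4 rose without saline replicate 5. The median log2 fold change of the list was 0.06. Rcan1, an inhibitor and target of calcineurin, rose from 88.6 to 588 CPM (2.73 ± 0.13 SE, edgeR adjusted p = 1.9e-08), and Xirp1, an actin-binding protein of intercalated discs, rose by 1.04 ± 0.16. Atp2a2, the calcium pump SERCA2a, which falls in hypertrophy, rose by 0.28 ± 0.08 (adjusted p = 0.0119, and 0.01 on the log2 scale with total count scaling). The thin filament gene Actc1 was at 7590 ± 688 CPM in controls and 8363 ± 777 CPM after LPS (SD; edgeR adjusted p = 0.2315).

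Gdf15 was the least abundant member, with 27, 45, 32, 20 and 20 reads in saline replicates 1 to 5 and 34, 3, 7, 5 and 7 reads in LPS replicates 1 to 5. These are 1.41, 2.51, 1.79, 1.16 and 1.19 CPM in saline and 2.35, 0.233, 0.429, 0.409 and 0.508 CPM in LPS hearts. In 4 LPS hearts the gene lay below every control, and in LPS replicate 1 it lay above 4 of the 5. With all hearts the log2 fold change was -1.01 ± 0.51 (SE; edgeR, adjusted p = 0.137), with a 95% interval of -2.12 to 0.10. Without LPS replicate 1 it was -1.99 (adjusted p = 0.00105), and with limma voom and all hearts -1.39 (adjusted p = 0.0269).

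LPS replicate 1 was the heart with the highest Acta1 and the second highest Ankrd1 as well, at 605 and 910 CPM. Genes known to drive or accompany Gdf15 went both ways, with 5 rising and 4 falling of 15 tested. The counts were 5 and 6 with total count scaling and 5 and 5 without saline replicate 5. Their median log2 fold change was -0.09, and 18.9% of all tested genes rose and 21.0% fell with TMM scaling. The stress factor genes Atf3 and Egr1 had log2 fold changes of 2.52 ± 0.78 and 1.96 ± 0.62 (SE), and neither call held with saline 1, 3 or 4 or LPS 1, 2 or 4 left out (p, adjusted, up to 0.0751 and 0.0823; for Atf3 also without saline replicate 2). Without saline replicate 5 they were 3.86 and 2.24 (edgeR adjusted p = 3.21e-06 and 0.0294). The cell cycle inhibitor gene Cdkn1a rose by 2.39 ± 0.45 and Atf4, the factor of the integrated stress response, by 0.74 ± 0.10. Other genes of that response went both ways. Asns rose by 0.89 ± 0.22 (edgeR adjusted p = 0.00436) with no overlap between groups. Ddit3 fell by 0.84 ± 0.14 and the serine synthesis gene Phgdh by 1.18 ± 0.34 on the log2 scale. The fall of Trib3 (-1.22 ± 0.44, adjusted p = 0.0386) did not pass with saline 2, 3 or 4 or LPS 1, 2 or 4 left out. Chac1, Psat1 and Sesn2 did not pass with all hearts (0.40 ± 0.46, -0.09 ± 0.27 and -0.49 ± 0.24). Gfral, the receptor of GDF15, had 0 reads in the 10 libraries, and its co-receptor gene Ret fell from 12.6 to 6.70 CPM (-0.91 ± 0.20).

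Ranked per length by the authors' deposited FPKM, the members ran in saline hearts from Ankrd1 through Acta1, Nppb, Nppa, Corin, Npr2, Myh7, Npr3 and Npr1 to Gdf15, which was at 0.915 ± 0.317 FPKM. Ranges overlapped between Ankrd1 and Acta1, between Acta1 and Nppb, between Npr2 and Myh7, between Myh7 and Npr3 and between Npr3 and Npr1. In LPS hearts the order was the same but for Npr1 and Npr3, which changed places. Corin, at 29.8 ± 5.24 FPKM in saline and 41.8 ± 5.82 in LPS hearts, stood above every receptor in each group, and its range overlapped that of Nppa in LPS hearts.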

How the data were processed

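RNA from 10 hearts (5 saline, 5 LPS) was sequenced from Illumina TruSeq libraries, per the labels' protocols. The deposited values were whole read counts for each gene and, beside them, the authors' FPKM. Bowtie 0.12.2 and mm9 appear in the submitters' processing notes; no source used here gives the counter, annotation or strand setting. Of 54532 gene identifiers 53499 have the start and end of GENCODE M21, so coordinates are GRCm38. The deposited FPKM imply library sizes of 0.775 to 1.09 times the total count, so FPKM were used only to compare genes per length. A further 20 deposited columns, FPKM subsets whose LPS columns are named for 3 h, were not used. Which time is right cannot be told from the files, and 24 h follows the labels.

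Differences were fitted on the counts in edgeR 4.0.16 (R 4.3.3): filterByExpr (minimum count 10, minimum total 15; 13864 genes kept), TMM scaling, robust quasi-likelihood F-test, Benjamini-Hochberg threshold 0.05. Standard errors come from the F statistic. Ratios were tested by exact permutation with scipy 1.17.1. In simulated data for this comparison with 13864 genes, 11 of 50 genes changed 1.5-fold, 30 of 50 changed 2-fold, 48 of 50 changed 4-fold and 44 of 50 changed 8-fold were recovered. The 19 alternatives covered other scalings (RLE, upper quartile, total count, TMM without mitochondrial genes), no filter or at least 1 CPM in 5 libraries, limma 3.58.1 voom, DESeq2 1.42.0, a replicate block and each library left out. Members, lists and the rule for named genes (all members; of each list the 3 largest rises and falls past the threshold, or the 2 most abundant where none passed; the genes of the ratios; the 3 genes most like Nppa and Nppb) were chosen with earlier results of these data known. Genes named beyond the rule were chosen after their values were seen. Titles give both groups replicate numbers 1 to 5, and nothing says that they pair mice.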

Additional observations from a re-analysis of the deposited data

Results flagged for a closer look

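Of 28 groups of 5 values (10 genes and 4 ratios in each of the 2 groups), 3 held a library whose gap to its nearest neighbour was over 0.71 of the group's range, where chance gives about 1 in 20. Corin was at 198 CPM in saline replicate 5, with the other saline hearts at 131 to 148 CPM. Myh7 was at 72.9 CPM in LPS replicate 5, with the other LPS hearts at 51.0 to 54.7 CPM. Gdf15 was at 2.35 CPM in LPS replicate 1, from 34 reads, with the other LPS hearts at 0.233 to 0.508 CPM.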

How the results depend on the processing

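Over 19 alternatives for each of 10 members, 173 of 190 log2 fold changes kept their direction and their side of the threshold, 11 lost a call, 5 gained one and 1 changed sign. All 19 kept the falls of Npr1 and Npr3. The sign change was Myh7 without saline replicate 5, at 0.0013 in a leave-one-out range of -0.3024 to 0.0013. With total count scaling 1712 of all tested genes rose and 5764 fell, 0 members rose and 4 fell, and 8 contractile genes passed. With upper quartile scaling 4407 genes fell and 1 member rose. Contractile genes passed in 5 cases with RLE scaling, with TMM without mitochondrial genes and with DESeq2. With no filter on low counts 1 member rose and 3 genes of the titin and YAP list passed. With the replicate block 1 member rose, Ankrd1 losing its call (adjusted p = 0.0585), and 2582 of all genes rose against 2617 without it. Deviations of same-numbered hearts from their group means correlated at -0.089 to 0.216, from which pairing cannot be judged. The numbers were not taken as pairs because nothing states that they pair mice.

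With each library left out in turn, members rising ranged from 1 to 2, passing genes of the transcription factor list from 7 (without saline replicate 3) to 11, and those of the titin and YAP list from 3 (without saline replicate 2 or 4 or LPS replicate 2) to 6. The difference in the share of Npr3 ranged from -18.8 to -16.0 percentage points, each time past the threshold at adjusted p = 0.0635 (exact permutation test). Fewer libraries allow fewer assignments, which raises the smallest unadjusted p, and the adjusted value depends on the other ratios as well. The difference of the log2 ratio of Nppb to Nppa ranged from -0.063 to 0.351 and changed sign without saline replicate 4 (-0.0239), saline replicate 5 (-0.0412) or LPS replicate 2 (-0.063). That of the share of Acta1 ranged from -0.108, without LPS replicate 1, to 1.02. That of the share of Myh7 ranged from -0.0703 to -0.0233, the latter without saline replicate 5. The cause of these changes was not tested. Depth limits Gdf15, with 3 to 45 reads per library.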
